A study of Drosophila melanogaster with 6 samples.

Results

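The genes described here build and carry the eye pigments of Drosophila melanogaster: bw, cn, pr, st, v, se, ry, Pu, g and car, chosen by name from the platform annotation. Of these 10 genes, 9 had a probe set with 1 gene symbol, giving 11 probe sets of the 13966 tested. The gene v, which encodes the tryptophan dioxygenase that opens the ommochrome route, had none and was not analysed here. RNA came from homozygous mle/mle larvae on 3 arrays and from wild type larvae of the strain written as cancon S on 3 arrays, all of the third larval instar and each hybridised as biotin-labelled RNA to an Affymetrix array. The mle/mle larvae were labelled male and were sorted from siblings that carried a translocation marked with Tb, whereas the sex of the wild type larvae was not given. The gene mle encodes a helicase of the complex that raises transcription of the male X chromosome, and the series asks how its mutation affects aneuploid targets.

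The brown-red eye colour of the fly comes from 2 pigment classes. Brown ommochromes are made from tryptophan through kynurenine, and red drosopterins are pteridines made from GTP. Precursors are moved into pigment granules by ABC transporters, and the granules are built by the same sorting machinery that serves lysosomes. Whole larvae have no adult eye pigment, but the larval Malpighian tubules and fat body use the kynurenine and pteridine routes, and the first pteridine steps also make tetrahydrobiopterin, the cofactor of tyrosine hydroxylase. The genes pr, cn and bw lie on chromosome 2, as mle does, and their recessive alleles are widely used as visible markers of that chromosome. The labels do not give the mle allele, nor any marker on its chromosome, so the design does not set strain background or linked alleles apart from mle.

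Each array gave log2 signals made with RMA, and the correlation between any pair of arrays lay between 0.987 and 0.997. The titles call the arrays biological replicates but give no number of larvae per array, so p-values measure only the spread between these samples, which may be technical. In the bulk RNA of whole larvae, fewer cells of a type and less RNA per cell cannot be told apart. The probe set of mle read 5.34 ± 0.08 in mle/mle larvae, against 5.45 ± 0.10 in wild type (SD, n = 3 each), the log2 difference being -0.10 (not past the test, adjusted p = 0.9997 by limma). The probe set was dim, and the value does not check the genotype. Over all probe sets limma called 8 at an adjusted p under 0.05, which is 0.0573% of those tested.

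None of the 11 eye pigment probe sets passed this test (limma, adjusted p = 0.9997 for each), and 0 of them had an unadjusted p under 0.05, where 4.32% of all probe sets did. Their log2 changes in mle/mle larvae ran from -0.46 for Pu to 0.16 for ry, with a median of 0.04 against 0.007 over all probe sets. Of the 11, 9 lay above 0 and 2 below, where 53.7% of all probe sets lay above. Groups were separated without overlap in 3 probe sets, those of pr, st and ry, each higher in mle/mle. Among all tested probe sets, 5.42% were separated in that direction. Since the titles number the arrays 1 to 3 in both groups and same-numbered arrays deviated together, the pairs were read too: 4 of the 11 were higher in mle/mle in all 3 pairs, where 15.6% of all probe sets were. Leaving out wild type replicate 2 changed the count of calls to 1, that of Pu, which is described below.

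**Figure D1:**
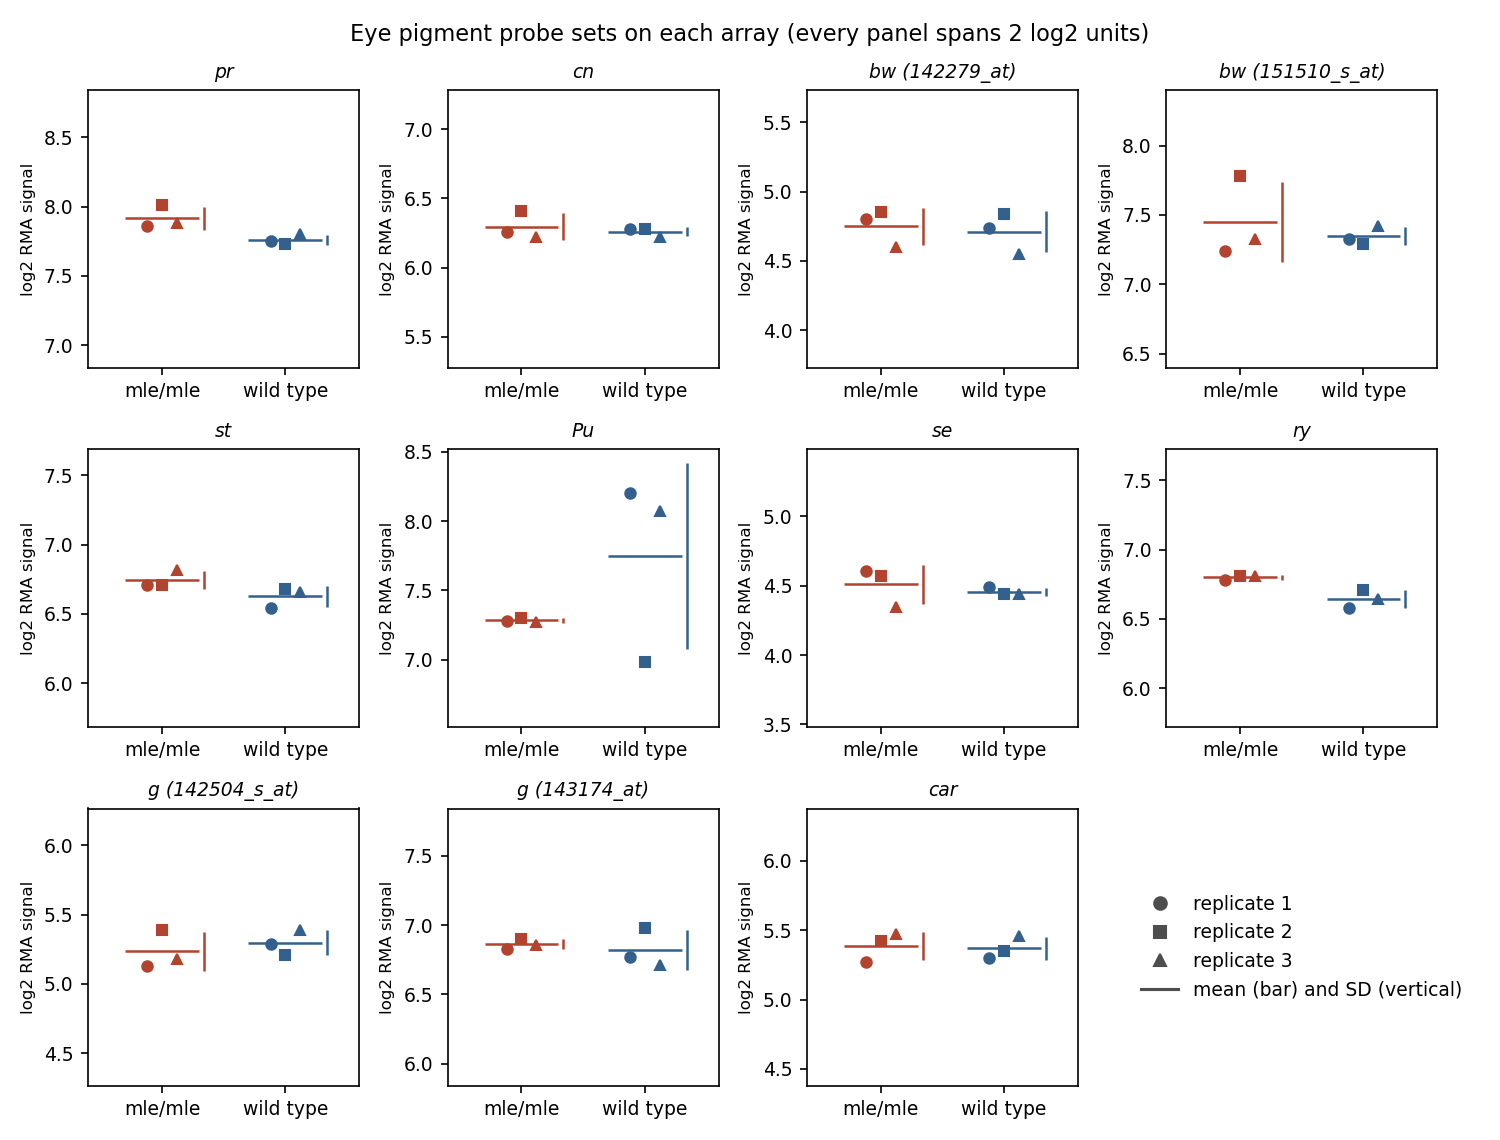
Log2 RMA signal (vertical axis, each panel spanning 2 log2 units) of the 11 eye pigment probe sets in mle/mle and wild type larvae, with 1 symbol shape per replicate number, a horizontal bar at the mean and a vertical line of 1 SD to each side. The mle/mle arrays lie above the wild type arrays for pr, st and ry, and wild type replicate 2 lies at 6.98 for Pu, below the other 5 arrays.

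The chromosome 2 markers pr, cn and bw were read apart from the others. The gene pr encodes the pyruvoyl tetrahydropterin synthase of the pteridine route. Its log2 signal was 7.86, 8.01 and 7.88 in mle/mle replicates 1, 2 and 3, against 7.75, 7.73 and 7.80 in wild type. Every mle/mle array was thus above every wild type array, by 0.06 where they came closest. The fitted change was 0.15 (SE 0.07, adjusted p = 0.9997 by limma), with a 95% interval from -0.02 to 0.32. It stayed above 0 under the 16 other settings tried, from 0.09 to 0.23.

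The gene cn encodes kynurenine monooxygenase, a later ommochrome step than v. Its probe set read 6.26, 6.41 and 6.22 in mle/mle, against 6.28, 6.28 and 6.22 in wild type. The groups overlapped, with mle/mle replicate 2 highest. The change was 0.04 with a 95% interval from -0.14 to 0.22, or 0.906 to 1.16 times the wild type signal. This direction rested on 1 array, since without mle/mle replicate 2 the change was -0.02.

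The transporter bw, partner of the protein White in carrying pteridine precursors into granules, had a pair of probe sets that did not move together over the arrays. The brighter one read 7.24, 7.78 and 7.33 in mle/mle larvae, against 7.33, 7.29 and 7.42 in wild type. Replicate 2 of mle/mle stood 0.45 above the next array of its group, and without it the log2 change of 0.10 turned to -0.07. The dimmer one read 4.80, 4.85 and 4.60, against 4.74, 4.84 and 4.55, so that same-numbered arrays nearly matched and replicate 3 was lowest in both groups. Its change was 0.04, and its signal fell short of each array's lower quartile, which was 5.80 to 5.84. The SDs of the brighter probe set were 0.29 in mle/mle and 0.07 in wild type.

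Neighbouring genes were read beside these markers, taking the 5 nearest measured genes on each side in the order of the RefSeq table. None of the 10 neighbours of pr, cn, bw or mle was called by limma. At an unadjusted p under 0.05 there was 1 neighbour of pr, 0 of cn, 0 of bw and 1 of mle. Around pr the neighbours had a median log2 change of -0.01, and only fok, with 0.40 (adjusted p = 0.738), had a larger change than pr. The neighbours of cn had a median of 0.09, and 8 of 10 had a larger change than cn itself. Those of bw lay between -0.06 and 0.13 around a median of 0.03. Beside mle the median was -0.02, and the farthest was CG7881 with -0.25 (unadjusted p = 0.0291, adjusted p = 0.991). The plot of neighbouring genes shows these changes.

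**Figure D2:**
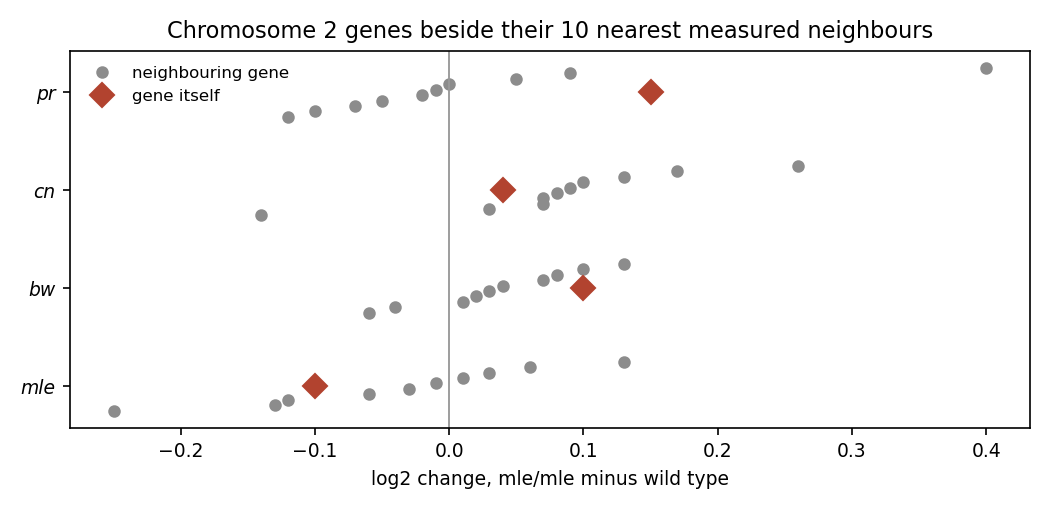
Log2 change in mle/mle larvae minus wild type (horizontal axis) of pr, cn, bw (brighter probe set) and mle as red diamonds, and of the 10 nearest measured genes of each as grey points. The changes of pr (0.15), cn (0.04), bw (0.10) and mle (-0.10) all lie within the range of their neighbours, with 1 neighbour of pr and 1 of bw having a larger change.

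The probe sets most like each marker over the 6 arrays were found among those with 1 symbol and at least the median SD. The profile of pr was closest to those of Gart (r = 0.9911), Gbp1 (r = 0.9902) and CG8788 (r = 0.9792). Gart encodes a trifunctional enzyme of purine synthesis and is taken up again below. The closest to cn was sp3 (r = 0.9928), followed by Gr43a, which encodes a fructose receptor (r = 0.9854), and CG8892. Of the brighter bw probe set they were CG9416 (r = 0.9907), atos and CG9427, and of the dimmer one CG42784 (r = 0.9982), CG7829 and CG14892. These are the highest of at least 6211 candidates on only 6 arrays of shared normalization, and they describe these arrays alone.

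Among the other pteridine enzymes, Pu differed most. It encodes GTP cyclohydrolase, which commits GTP to the pteridine and tetrahydrobiopterin routes. Its log2 signal was 7.28, 7.30 and 7.27 in mle/mle larvae, against 8.20, 6.98 and 8.07 in wild type. The mle/mle arrays nearly coincided, while wild type replicates 1 and 3 lay above all of them and wild type replicate 2 below all of them. The fitted change was -0.46 (SE 0.28, adjusted p = 0.9997 by limma) with a 95% interval from -1.11 to 0.18, or 0.463 to 1.14 times the wild type signal. The size of this change was exceeded by 1.17% of all probe sets.

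The call of Pu depended on that 1 array. Without wild type replicate 2, Pu fell by 0.85 (SE 0.07, adjusted p = 0.0424 by limma), in a fit where 5 of 13966 probe sets were called lower (0.0358%) and wild type was left with replicates 1 and 3. Without replicate 2 of both groups it fell by 0.86 (SE 0.08, adjusted p = 0.000927 by limma), which is 0.551 times the wild type signal. That fit called 453 probe sets in either direction (3.24%), and Pu was the only eye pigment probe set among all its calls. With the replicate block the p of Pu was 0.0897 and the adjusted p 0.8 by limma. The same-numbered differences were -0.92, 0.32 and -0.80 in the log2 RMA signal.

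In the authors' second table of PLIER signals, Pu read 7.84, 7.91 and 7.91 in mle/mle, against 7.47, 8.64 and 8.77 in wild type, so 1 wild type array was again lowest. That array carried the same array code as the wild type array at 8.77 and the mle/mle arrays at 7.91 and 7.91. The spread of Pu within wild type was among the widest on the array, with 32 probe sets (0.229%) having at least its range of 1.23. Within mle/mle its range was 0.03, against a median of 0.18 over all probe sets.

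**Figure D3:**
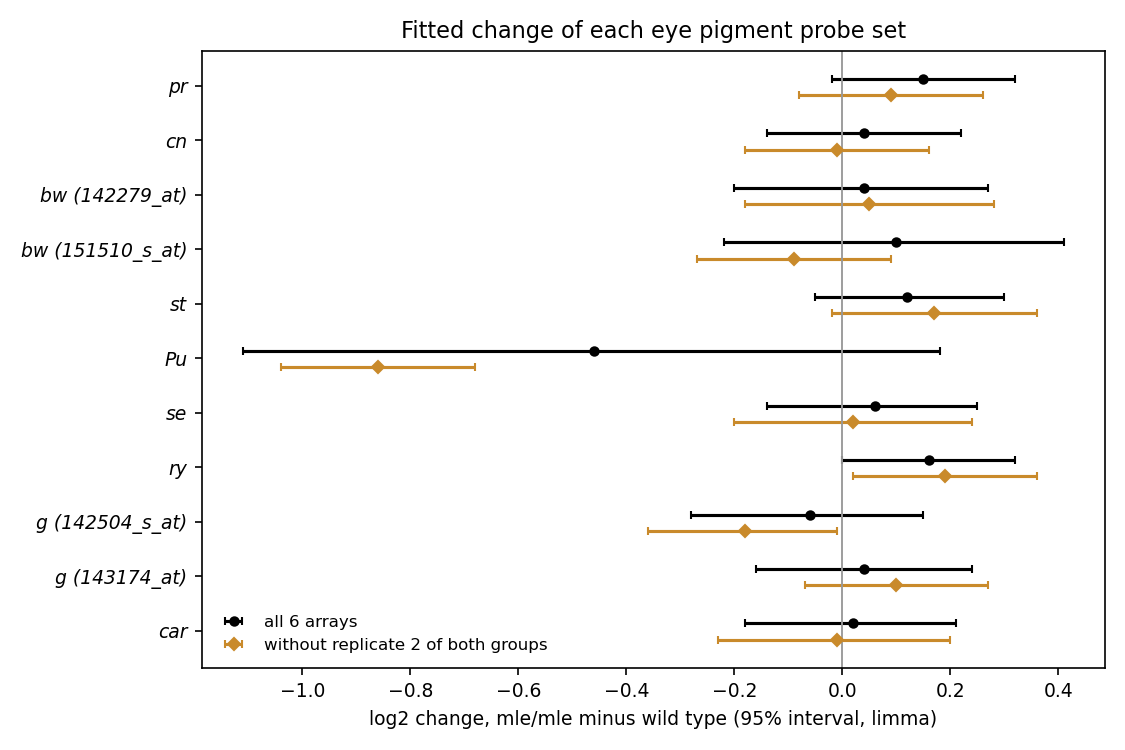
Fitted log2 change in mle/mle larvae minus wild type (horizontal axis, 95% interval by limma) of each eye pigment probe set, from all 6 arrays (black circles) and without replicate 2 of both groups (yellow diamonds). The interval of Pu runs from -1.11 to 0.18 with all arrays and from -1.04 to -0.68 without replicate 2. The fitted changes, though not the intervals, of the other 10 probe sets lie within 0.2 of 0 in both fits. Without replicate 2 the intervals of ry (0.02 to 0.36) and the dimmer g probe set (-0.36 to -0.01) also leave out 0, but neither was called.

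The gene ry encodes xanthine dehydrogenase, which acts on purines and pteridines, and had the smallest p of the eye pigment probe sets. It read 6.78, 6.81 and 6.81 in mle/mle, against 6.58, 6.71 and 6.64 in wild type. The mle/mle arrays spanned only 0.03 and all lay above wild type. The change was 0.16 (SE 0.07, unadjusted p = 0.0506, adjusted p = 0.9997 by limma), 1.12 times the wild type signal. It ranged from 0.13 to 0.25 over the settings tried, and in the PLIER table the change was 0.23 (adjusted p = 1.0). With the replicate block the unadjusted p was 0.0442 and the adjusted p 0.675 by limma, where 7.18% of all probe sets had an unadjusted p under 0.05.

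The gene se encodes the glutathione transferase of the omega class that makes a drosopterin intermediate. Its signals were 4.61, 4.57 and 4.35 in mle/mle, against 4.49, 4.44 and 4.44 in wild type, among the dimmest on the arrays. The groups overlapped, with a change of 0.06 and an interval from -0.14 to 0.25. In the PLIER table the change was 0.26, and within the array code of 4 arrays it was 0.40 (unadjusted p = 0.0241, adjusted p = 1.0 by limma).

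The transporter gene st encodes the partner of White for ommochrome precursors. It read 6.71, 6.71 and 6.82 in mle/mle, against 6.54, 6.68 and 6.66 in wild type. The mle/mle arrays lay above wild type by a gap of 0.03 at the closest. The change was 0.12 (SE 0.08, adjusted p = 0.9997 by limma), with an interval from -0.05 to 0.30. Beside it, bw changed by 0.10 and 0.04 in its probe sets, and the gene w of their common partner was not analysed here.

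The granule trafficking genes g and car lie on X. The gene g encodes the delta subunit of the AP-3 adaptor, and car encodes a Vps33 protein of the tethering complex of late endosomes. The brighter probe set of g read 6.83, 6.90 and 6.86 in mle/mle, against 6.77, 6.98 and 6.71 in wild type. The dimmer one read 5.13, 5.39 and 5.18, against 5.29, 5.21 and 5.39. Groups overlapped in both, and the changes were 0.04 and -0.06, of opposite sign. The probe set of car read 5.27, 5.42 and 5.47 in mle/mle, against 5.30, 5.35 and 5.46 in wild type, a change of 0.02 with an interval from -0.18 to 0.21. With all 6 arrays, none of the 3 intervals on X reached a change of 0.3 in either direction, and the median change of all X probe sets was -0.021. Without replicate 2 of both groups the dimmer g probe set had -0.18, with an interval from -0.36 to -0.01 (adjusted p = 0.353 by limma).

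Further genes of the same routes were read from lists chosen by function, with members left out and the brightest probe set standing for each gene. No gene of these lists was called by limma. In the ommochrome route 4 of 7 genes were measured, with a median change of 0.06. Kyat, a kynurenine aminotransferase, had 0.18 (adjusted p = 0.9997), kar had 0.12 and cd, an ommochrome gene of the peroxidase family, had -0.02. In the list of the other pteridine genes and the molybdenum cofactor, which xanthine dehydrogenase needs, 7 of 11 were measured with a median of 0.07. Its cofactor gene Mocs1 had 0.10 and the sepiapterin reductase gene Sptr 0.09.

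Genes of granule trafficking stayed close to 0. Of 20 listed, 16 were measured, 9 were above 0, and changes ran from -0.10 to 0.08 with a median of 0.02. The farthest below was Rab32, whose product marks pigment granules, and the farthest above included ca and p, at 0.08 each. In ca the groups did not overlap, with 6.42, 6.36 and 6.40 in mle/mle, against 6.33, 6.32 and 6.29 in wild type (adjusted p = 0.9997 by limma). In that direction 5.42% of all probe sets were separated.

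Purine synthesis supplies GTP to the pteridine route, and eye colour genes such as ras and bur lie in it. Here 10 of 11 measured genes were above 0, where 53.7% of all probe sets were, with a median change of 0.13 against 0.007 over all probe sets. Of the 11, 2 had an unadjusted p under 0.05, where 4.32% of all probe sets did. Their summed linear signal was 4041, 4132 and 4393 in mle/mle, against 3705, 3460 and 4128 in wild type, so the groups overlapped, with wild type replicate 3 above mle/mle replicate 1. Paics read 9.65, 9.73 and 9.67 in mle/mle, against 9.35, 9.28 and 9.51 in wild type, a change of 0.30 (SE 0.08, unadjusted p = 0.00594, adjusted p = 0.573 by limma). Gart read 8.81, 9.13 and 8.92, against 8.58, 8.56 and 8.68, a change of 0.35 (SE 0.10, unadjusted p = 0.00708, adjusted p = 0.6 by limma). In both genes every mle/mle array lay above every wild type array. The GMP synthase gene bur had 0.19 and the IMP dehydrogenase gene ras 0.06, with overlapping groups. In the blocked fit the adjusted p of Paics and of Gart was 0.361 by limma. Without replicate 2 of both groups each of them had 0.23 (adjusted p = 0.256 for Paics and 0.239 for Gart by limma). AMPdeam had -0.17 in that fit, against -0.11 with all arrays. The same fit gave ras -0.19, pn -0.01, Pfas 0.02, Prat2 0.03, Adsl 0.04 and Prat 0.05, while bur had 0.25 and Adss 0.39. The upward lean of the list thus depended in part on replicate 2.

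**Figure D4:**
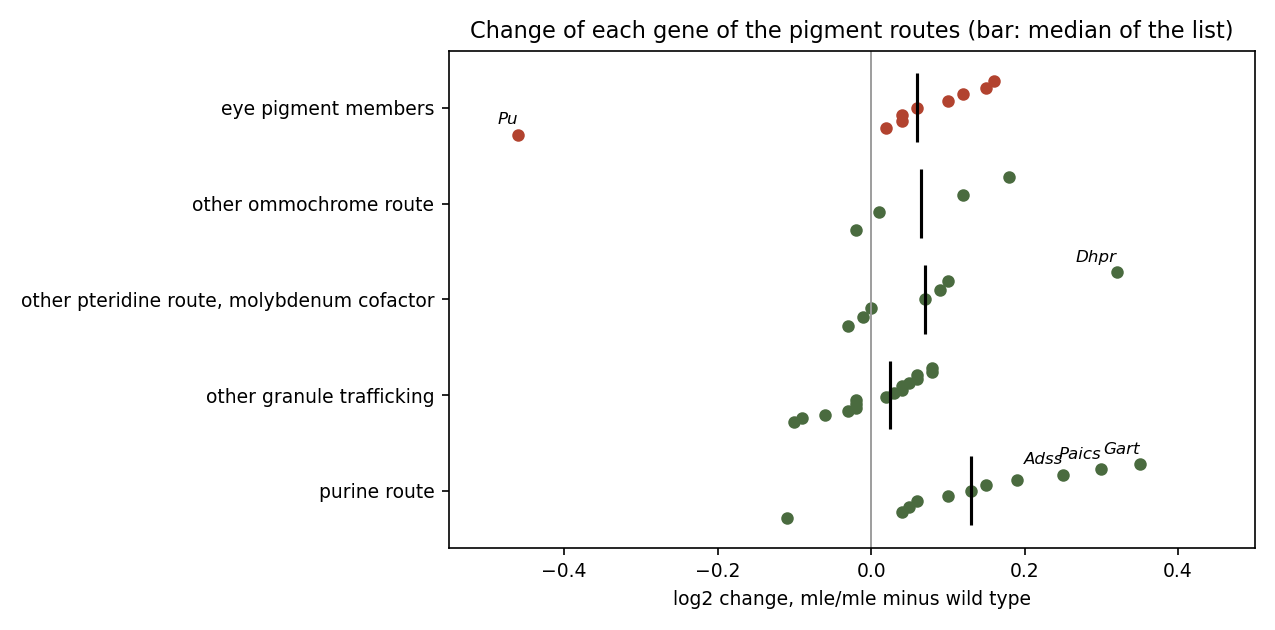
Log2 change in mle/mle larvae minus wild type (horizontal axis) of each measured gene of the eye pigment set and of 4 lists of related genes, with a black bar at the median of each list and names for changes of at least 0.25 in size. The purine list has the highest median, 0.13, and Pu (-0.46) lies apart from every other gene shown.

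Dhpr, which encodes dihydropteridine reductase and regenerates the biopterin cofactors, had the same low array as Pu. It read 8.71, 9.12 and 8.76 in mle/mle, against 8.86, 7.82 and 8.95 in wild type. Its change was 0.32 (SE 0.28, adjusted p = 0.9997 by limma) with all arrays and -0.04 without wild type replicate 2. In wild type replicate 2, 15 probe sets lay at least as far below both other wild type arrays as Pu, which was 1.09 below. They included Ddc, the dopa decarboxylase gene, and e, which encodes a synthase that conjugates dopamine for cuticle tanning.

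A list of catecholamine and cuticle pigment genes was therefore added after these values were seen and is given as a description only. The gene ple, for the tyrosine hydroxylase that needs tetrahydrobiopterin, read 9.71 and 9.97 in mle/mle replicates 1 and 3, with replicate 2 a further 1.03 above the higher of them, against 9.89, 8.94 and 10.38 in wild type. Ddc read 10.07, 10.57 and 10.32, against 10.41, 8.80 and 10.53. The gene e read 8.39, 9.94 and 8.55, against 8.63, 7.41 and 8.77. In all 3 genes wild type replicate 2 was lowest and mle/mle replicate 2 highest of the 6 arrays. Pu shared the low value in wild type replicate 2 but not the high one, since its mle/mle arrays lay within 0.03. The gene speck, for an arylalkylamine acetyltransferase, read 7.16, 9.01 and 7.0 in mle/mle, against 7.72, 8.06 and 7.68 in wild type, with replicate 2 highest in both groups. Its change was -0.10 with all arrays and -0.62 without replicate 2 of both groups (adjusted p = 0.9997 and 0.00545 by limma). The other measured genes of the list, t, y, stw and Catsup, had changes of 0.00 to 0.09, and wild type replicate 2 was the lowest of its group in y and Catsup.

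**Figure D5:**
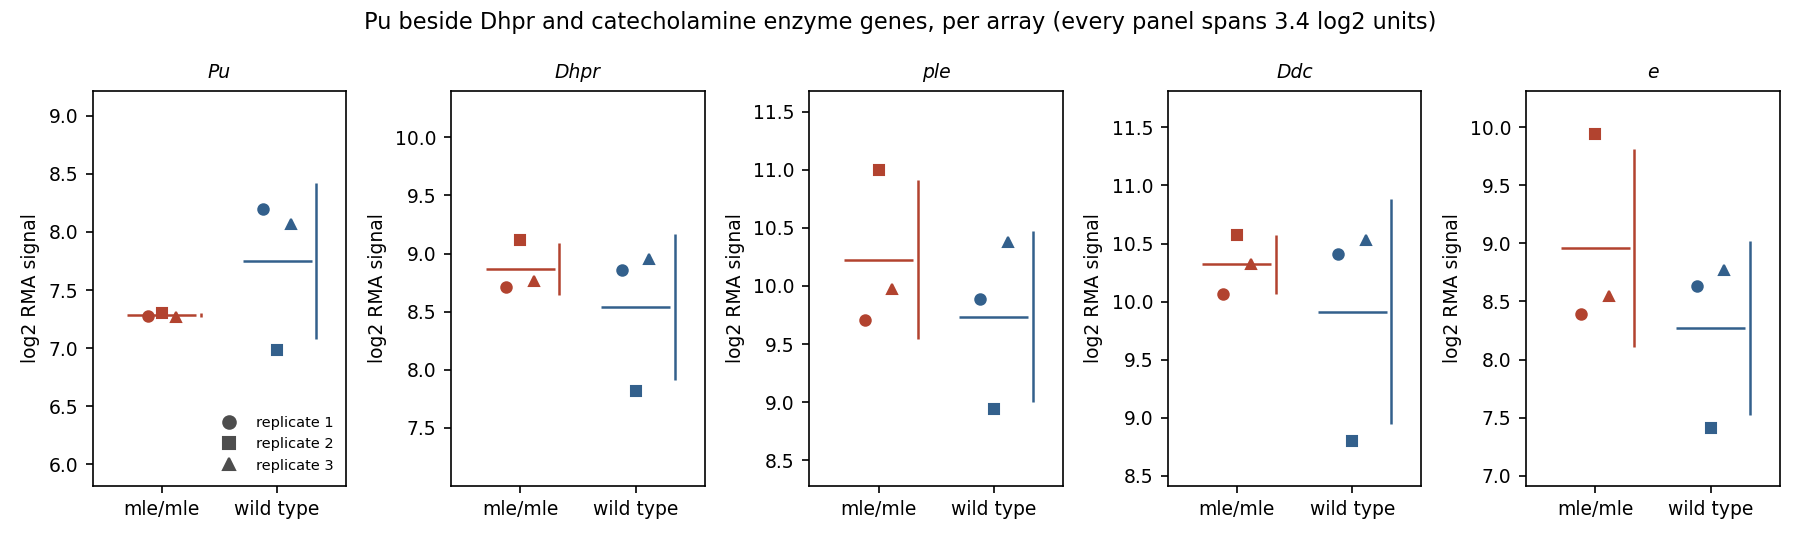
Log2 RMA signal (vertical axis, each panel spanning 3.4 log2 units) of Pu, Dhpr, ple, Ddc and e on each array, with 1 symbol shape per replicate number, a bar at the mean and a line of 1 SD to each side. Wild type replicate 2 is the lowest array in all 5 panels, and mle/mle replicate 2 is the highest in 4 of them, Pu (7.30) being the exception.

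Markers of larval age and of tissues were read beside these values. The age list of glue and late salivary gland genes had 14 of 16 genes measured. All had a change below 0, where 53.7% of all probe sets lay above 0, with a median of -0.33. Eig71Eh, Eig71Ei, Eig71Ej and Eig71Ek were dim, below each array's lower quartile of 5.80 to 5.84. Without replicate 2 of both groups their changes were -0.04, -0.04, -0.03 and 0.02. The summed linear signal of the list was 45539 to 56010 in mle/mle, against 58873 to 62526 in wild type. By this sum, which the brightest glue genes dominate, replicate 2 was the highest mle/mle array and the lowest wild type array. The median deviation of the 14 genes from their means over the 6 arrays was -0.32, 0.08 and -0.25 in mle/mle. In wild type it was 0.10, 0.33 and 0.05, so by this measure replicate 2 was highest in both groups. The late gene Eig71Ea read 5.33, 8.21 and 5.36 in mle/mle, against 7.30, 8.70 and 7.63 in wild type, with replicate 2 highest in each group. None of the 14 was called with all arrays. Of them, 4 had an unadjusted p under 0.05 by limma, all lower in mle/mle, where 4.32% of all probe sets did in either direction. With the replicate block 1 was called (Eig71Ed, -0.90, adjusted p = 0.0205 by limma). Without replicate 2 of both groups, the fit in which Pu was called, 8 were called lower. That fit called 140 of all 13966 probe sets lower. The part of these age markers in the values of Pu, Dhpr and the catecholamine genes was not tested.

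Malpighian tubule genes, 9 of 11 measured, had a median change of 0.02 and summed to 3328 to 3536 in mle/mle, against 3301 to 3527 in wild type. The ranges overlapped, and SecCl, a chloride channel gene, had the smallest p with 0.27 (adjusted p = 0.717 by limma). Fat body genes, 6 of 8 measured, summed to 33112 to 36611 in mle/mle, against 30074 to 34175 in wild type, with wild type replicate 2 lowest. Their median change was 0.11, and 4 of the 6 were above 0, where 53.7% of all probe sets were. An unadjusted p under 0.05 by limma was found in 2 of the 6, both higher, where 4.32% of all probe sets had one. These were Fbp1 with 0.27 (unadjusted p = 0.0439, adjusted p = 0.9997 by limma), its groups overlapping, and Idgf2. Idgf2 had 0.34 (adjusted p = 0.268 by limma with all arrays, and 0.0411 without replicate 2 of both groups). Fst had -0.20 and apolpp -0.07, in the other direction (adjusted p = 0.9997 for each by limma). All 13 eye disc genes were measured, with a median of -0.01 and sums of 1651 to 1851, against 1674 to 1813. Of the 13, 5 were above 0, and 2 had an unadjusted p under 0.05 by limma, where 4.32% of all probe sets did. These were eya with -0.24 and B-H1 with -0.26 (unadjusted p = 0.0404 and 0.0306, adjusted p = 0.9997 for each by limma). The early eye gene ey differed by 0.01. The tables hold no detection call and no value of 0, so no marker could be called absent, and the part of tissue make-up in the eye pigment values was not tested.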

How the data were processed

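RNA of 3 mle/mle and 3 wild type larval samples was measured on 1-colour Affymetrix arrays. The authors deposited log2 signals per probe set. Per the submitters' processing notes these come from RMA, of which no version or setting is stated. Per the file headers, a second deposited table holds PLIER signals, offset by 16 and on a log2 scale by their values. Column names there give the group of each array but no replicate number, and an array code on 4 and on 2 arrays, each with both groups.

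With 44 array controls removed, 13966 probe sets entered the tests. In the platform annotation 12443 carry 1 symbol, 327 more than 1, and 1196 carry none. Current symbols came from RefSeq (assembly Release 6 plus ISO1 MT), where 12394 matched by Entrez ID. No genome build is named for the arrays, so no coordinates are given. The 2 groups were compared two-sided by limma 3.58.1 (lmFit, eBayes; R 4.3.3). P-values were adjusted by Benjamini-Hochberg over the 13966 probe sets and called under 0.05. The script was tested on simulated data. Plots were made in Python 3.11.15 with matplotlib 3.10.9.

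Deviations of same-numbered arrays from their group means correlated at 0.17, 0.28 and 0.52, so the title numbers were taken as pairs, and a fit with that block was an alternative. Further settings were quantile normalization, the PLIER table, centring, a filter leaving out the dimmest 40%, a variance trend, means per gene, stricter and unadjusted thresholds, and leaving out arrays. Members and lists were chosen with earlier results of these data known. The rule named every eye pigment gene, mle, and from each route list its called genes or else the 3 with the smallest p, and other genes named were chosen after their values were seen. The number of arrays limits the precision.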

Additional observations from a re-analysis of the deposited data

How the results depend on the processing

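No eye pigment probe set was called under the PLIER values, quantile normalization, centring, the dim filter (which kept 6 of the 11), the replicate block, the variance trend, means per gene, a block for array code or an adjusted p under 0.01 (limma, 0 to 1 at an unadjusted p under 0.05 in these fits). The count was 0 to 1 when 1 array was left out and 1 without replicate 2 of both groups, that 1 being Pu each time. Over all probe sets the 8 calls became 4 with PLIER values, 1 when the array code was added to that fit, and 0 in the 4 arrays that share 1 code (399 there at an unadjusted p under 0.05 by limma), a setting chosen after seeing the data. They became 2 at an adjusted p under 0.01, 604 at an unadjusted p under 0.05 and 453 without replicate 2 of both groups. Leaving out 1 array gave 0 to 145, with 145 without mle/mle replicate 2, 7 without wild type replicate 2 and 0 without any other. The replicate block ended or made no call among the eye pigment or route genes, and made 1 among the larval age markers (Eig71Ed). The dim filter left out cn, se, car and the dimmer probe sets of bw and g, and low signal limits what those genes can show.

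The changes of pr, st, se, ry, Pu and the dimmer probe set of g kept their direction in every setting run. Without replicate 2 of both groups the brighter bw probe set turned to -0.09, cn to -0.01, car to -0.01, cd to 0.002 and Dhpr to -0.17. With PLIER values, alone or blocked by array code, that bw probe set turned to -0.07, the brighter g probe set to -0.06, car to -0.06 and cd to 0.07. In the 4 arrays that share 1 code they were -0.01, -0.13, -0.14 and 0.02. The mean of both g probe sets was -0.01. When 1 array was left out, changes ran from -0.04 to 0.11 and -0.07 to 0.20 for the dimmer and brighter bw probe sets, -0.02 to 0.07 for cn, -0.01 to 0.12 for the brighter g probe set, -0.02 to 0.07 for car, -0.05 to 0.02 for cd and -0.04 to 0.52 for Dhpr. The cause of these turns was not tested.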

Other observations

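The 15 probe sets that lay as far below the other wild type arrays in wild type replicate 2 as Pu did, 13 of them with 1 symbol, were named after their values were seen. CG14664 was farthest, with 10.24, 11.85 and 10.32 in mle/mle, against 11.44, 8.62 and 11.62 in wild type. CG5391 read 11.02, 11.52 and 10.99, against 11.15, 9.11 and 11.12. In 12 of the 15 the same-numbered mle/mle array was the highest of its group, and in the other 3 it was the lowest, as for COX4L with 7.49, 6.22 and 7.61 in mle/mle, against 7.78, 6.66 and 7.89 in wild type. Pu was among the 12 by the narrowest margin, its mle/mle arrays lying within 0.03 of each other.

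The profile of Pu over the 6 arrays was closest to those of pigeon (r = 0.9967), CG12674 (r = 0.9876) and Obp56d (r = 0.9869), read by the same rule as for the markers and added after the values were seen. Obp56d, an odorant-binding protein gene, read 11.53, 11.53 and 11.54 in mle/mle, against 11.88, 11.47 and 11.89 in wild type. As for Pu, wild type replicates 1 and 3 lay above all mle/mle arrays and wild type replicate 2 below them. Since Obp56d was chosen for its likeness to Pu on these 6 arrays, the shared order is a description only.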
